A study of Mus musculus with 45 samples.

Results

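The chemokines described here are 10 genes whose RNA is known from adipose tissue: the CC chemokines Ccl2, Ccl7, Ccl8 and Ccl11, the CXC chemokines Cxcl1, Cxcl10, Cxcl12, Cxcl14 and Cxcl16, and the CX3C chemokine Cx3cl1. These genes were chosen with earlier results of these data known, so that shares called among them are descriptions only. All probe sets of the array whose only annotated gene symbol is one of the 10 were taken, which gave 19 of the 45037 probe sets and 10 of the 18193 genes with a probe set of a single symbol. They were measured in adipocytes isolated from parametrial and periovarian fat of 45 female C57BL/6 mice, 1 Affymetrix MG430-2.0 array per mouse. All mice lacked ApoE (ApoE-/-), and diets began at 8 weeks of age. D mice (IR+/- IRS1+/- ApoE-/-, heterozygous for the insulin receptor and its substrate 1) received a Western, high-fat diet for 16 weeks (DW16, n = 9) or chow for 16 weeks (DC16, n = 5), and Western diet for 8 weeks (DW8, n = 5) or chow for 8 weeks (DC8, n = 7). E mice (ApoE-/- with both alleles of the other genes intact) received Western diet for 16 weeks (EW16, n = 8), chow for 16 weeks (EC16, n = 5) or Western diet for 8 weeks (EW8, n = 6). No mouse of wild-type ApoE is among these groups. The design asks how diet, its duration and the double heterozygous state change the RNA of these cells.

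Chemokines are small secreted proteins that direct the migration of leukocytes by binding receptors of the G protein-coupled family, and their families are named for the spacing of conserved cysteines. In adipose tissue they are made by adipocytes, stromal cells, endothelium and resident macrophages, and several of them are best known for drawing monocytes, eosinophils, neutrophils or T cells into the fat of obese animals. Many of their genes are induced by NF-kB or by interferons, and Ccl2, Ccl7, Ccl11 and Ccl8 belong to a gene cluster on mouse chromosome 11, where Ccl2, Ccl7 and Ccl11 follow each other as neighbouring coding genes in the RefSeq annotation.

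Values are log2 RMA values, in which 1 unit is a 2-fold difference, and values of different probe sets cannot be set against each other. Of the 45 arrays 35 span nearly the same range, with a 95th percentile of 10.95 to 11.14. The other 10 are those of DW16 mice 1 to 7 and EW16 mice 1 to 3. On these the 95th percentile was only 10.14 to 10.85, and values had an SD of 2.11 to 2.35, against 2.39 to 2.53 on the 35. They are called narrow-range arrays here. No source used here gives a date or batch, so in D mice the narrow range and 16 weeks of Western diet cannot be told apart beyond mice 8 and 9, and diet differences at 16 weeks are therefore given with and without these arrays. Adipocyte markers were high everywhere, with a mean over 8 of 10 listed genes of 12.39 ± 0.451 in DW16 and 12.91 ± 0.184 in DC16 mice (SD, n = 9 and 5). Markers of other cells were present too: macrophage markers (12 of 12 measured) averaged 8.80 ± 0.408 in DW16 and 9.21 ± 0.394 in DC16 mice, and endothelial markers (8 of 8) 8.65 ± 0.626 in DW16 and 9.67 ± 0.204 in DC16 mice. Fewer cells of a type and less RNA per cell cannot be told apart in such samples. Of the 19 probe sets 15 have a mean above the median of the array, and the other 4 (Cxcl12 1439084_at, Cxcl14 1418457_at, Cx3cl1 1441884_x_at and 1421610_at) are dim.

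After 16 weeks of Western diet 3 of the 10 chemokines were lower in D mice: Ccl11, the eosinophil attractant eotaxin, Cxcl12, the ligand of Cxcr4, and Ccl2, the monocyte attractant MCP-1. Ccl11 was 4.41-fold lower in DW16 than in DC16 mice, Cxcl12 2.55-fold by its probe set 1448823_at, and Ccl2 2.25-fold. In limma, with p adjusted across the array by Benjamini-Hochberg, these 3 of 19 probe sets had an adjusted p under 0.01, which is called "called" here, and all 3 were lower, against 2.63% of all probe sets called lower. At an adjusted p under 0.05 the count was 8 of 19, all lower (Ccl7, Cxcl10, Cxcl1, Cxcl16 and a further Cxcl12 probe set joining), against 13.7% array-wide. The median difference of the 19 was −0.41, beside 0.04 over all probe sets, and 15 of 19 had a lower mean in DW16 mice. In 2 of 19 (Ccl11 and Cxcl12 1448823_at) every DW16 value lay below every DC16 value, against 1.96% of all probe sets. Leaving out DC16 mouse 2 ended all 3 calls, leaving out any of DW16 mice 2 to 6 or DC16 mice 1, 3 or 5 kept Ccl11 alone, and leaving out DW16 mouse 8 or 9 gave 6 or 5 calls. Without the narrow-range arrays 0 of 19 were called (smallest adjusted p = 0.28), and 0 with each array's SD as covariate, where Ccl11 differed by −1.32 (adjusted p = 0.070), Cxcl12 1448823_at by −0.80 (adjusted p = 0.23) and Ccl2 by −0.56 (adjusted p = 0.37).

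E mice showed the same 2 leading genes. Ccl11 was 3.42-fold lower and Cxcl12 (1448823_at) 2.71-fold lower in EW16 than in EC16 mice, and these were the 2 of 19 probe sets called, both lower, against 2.39% of all probe sets. At an adjusted p under 0.05 the count was again 2, against 7.16% array-wide, and 18 of 19 had a lower mean in EW16 mice, with a median difference of −0.46 beside 0.06 over all probe sets. Cxcl12 (1448823_at) was the 1 of 19 whose EW16 values all lay below those of EC16 mice, against 3.39% array-wide. The diet difference at 16 weeks was not shown to differ between D and E mice: 0 of 19 were called in the interaction, 1 had an unadjusted p under 0.05, and 0% of all probe sets were called. For Ccl11 the difference of differences (D minus E) was −0.37 (95% interval −1.28 to 0.54) and for Cxcl12 (1448823_at) 0.08 (−0.66 to 0.83), so that neither interval leaves out a difference of 0.5 log2 units in either direction. With the narrow-range arrays left out these were 0.52 (SE 0.406, adjusted p = 0.56) and 0.62 (SE 0.253, adjusted p = 0.19), also not called.

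**Figure D1:**
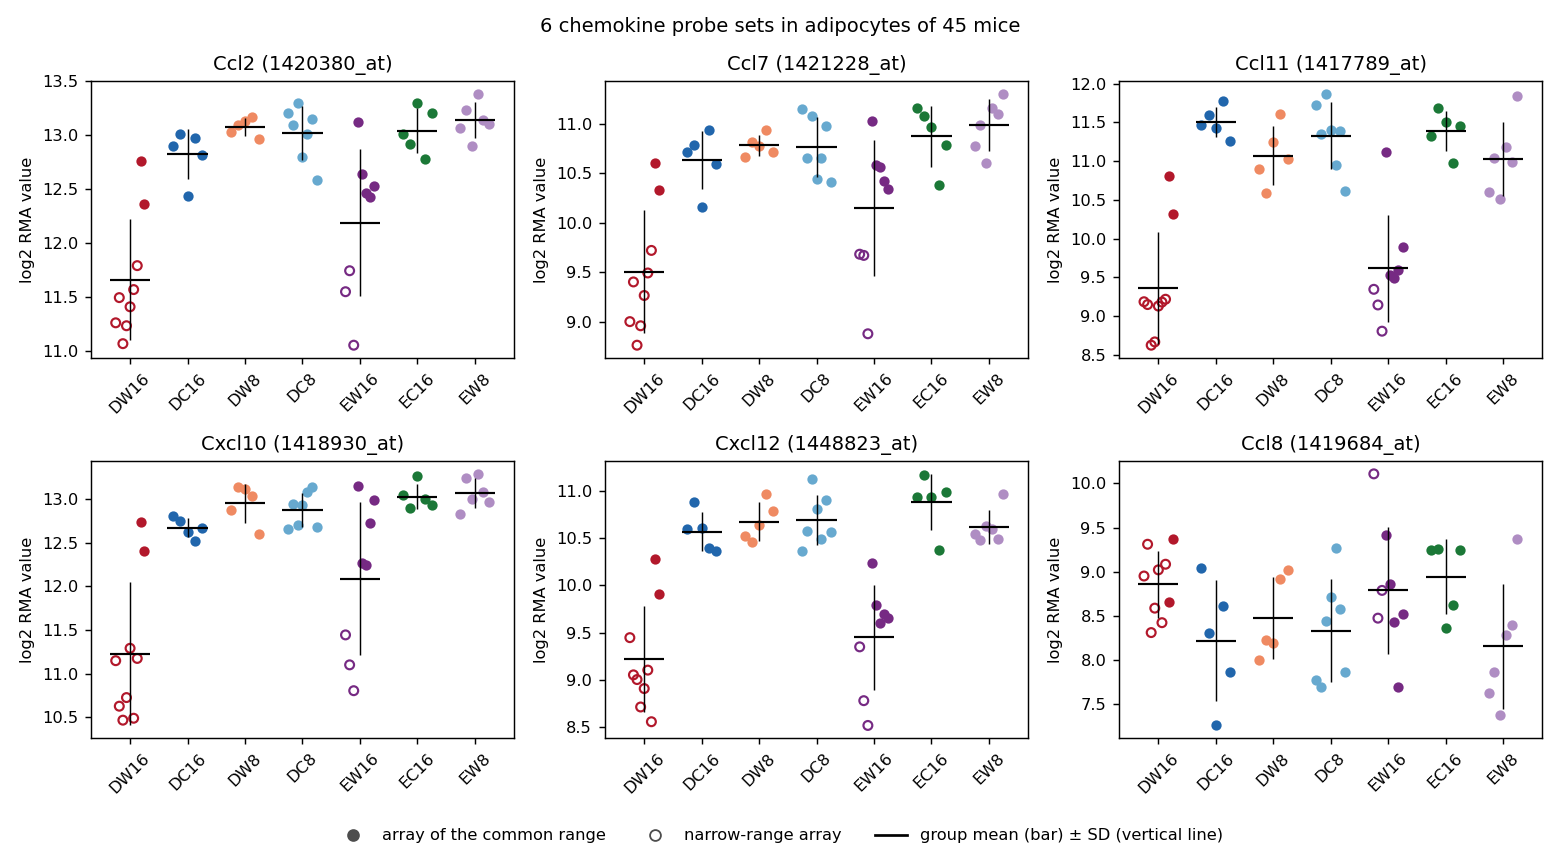
Log2 RMA value of 6 chemokine probe sets in each of 45 mice (y axis) by group (x axis); points are mice, open circles are the 10 narrow-range arrays, horizontal bars are group means and vertical lines ± SD. Ccl2, Ccl7 and Cxcl10 are low on the open circles and nearer the chow level in the other Western-fed mice. Most filled EW16 circles of Ccl2 still lie below every EC16 mouse, with a difference of means of −0.41. Ccl11 and Cxcl12 are further below chow in the filled EW16 circles, at −1.46 and −1.09, and Ccl8 shows no such drop.

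Ccl2 and Ccl7 both attract monocytes through Ccr2. Ccl2 was 11.26, 11.49, 11.06, 11.23, 11.41, 11.57 and 11.79 in the 7 DW16 mice on narrow-range arrays and 12.76 and 12.37 in DW16 mice 8 and 9, against 12.90, 13.01, 12.44, 12.98 and 12.81 in DC16 mice. All 7 narrow-range values lay under every chow value, while mouse 8 lay among the chow values and mouse 9 just below the lowest of them. The difference was −1.17 (SE 0.242, adjusted p = 0.0083 in limma) with all mice and −0.27 (SE 0.184, adjusted p = 0.78) with the narrow-range arrays left out, where 0% of all probe sets are called. Repeating the quantile normalization ended the call of Ccl2 (−0.73, adjusted p = 0.015) and kept those of Ccl11 and Cxcl12 1448823_at. In EW16 mice Ccl2 was 11.55, 11.74 and 11.05 on narrow-range arrays and 13.12, 12.64, 12.46, 12.42 and 12.53 on the others, against 12.78 to 13.30 in EC16 mice (median 13.01). The difference was −0.85 (SE 0.288, adjusted p = 0.078), not called, and −0.41 (SE 0.143, adjusted p = 0.066) without the narrow-range arrays.

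Ccl7 followed the same order. DW16 values were 8.76 to 9.72 in mice 1 to 7 and 10.60 and 10.33 in mice 8 and 9, against 10.16 to 10.93 in DC16 mice. Only the narrow-range values lay apart, and the difference of −1.13 (SE 0.269, adjusted p = 0.013) was not called. Without the narrow-range arrays it was −0.17 (SE 0.203, adjusted p = 0.89) in D mice and −0.29 (SE 0.161, adjusted p = 0.24) in E mice. Over the 7 groups the mean of Ccl2 was highest in EW8 mice (13.14 ± 0.165), followed by DW8 (13.08 ± 0.0823), EC16 (13.04 ± 0.209), DC8 (13.02 ± 0.250), DC16 (12.83 ± 0.231), EW16 (12.19 ± 0.679) and DW16 mice (11.66 ± 0.561; SD, n as above). None of the tested pairs among the first 5 was called, and the lower mean of DW16 than of EW16 mice was not called (−0.53, SE 0.279, adjusted p = 0.38).

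Ccl11 recruits eosinophils through Ccr3. It was 9.18, 9.15, 8.62, 8.66, 9.13, 9.18 and 9.22 in DW16 mice 1 to 7 and 10.81 and 10.32 in mice 8 and 9, against 11.47, 11.59, 11.42, 11.78 and 11.25 in DC16 mice. Here the 2 mice outside the narrow-range arrays also lay below every chow mouse. The difference was −2.14 (SE 0.303, 95% interval −2.78 to −1.50, adjusted p = 0.0024), and −0.94 (SE 0.181) from mice 8 and 9 alone, which limma did not call with 2 mice left (unadjusted p = 0.00067, adjusted p = 0.28).

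In E mice the lower Ccl11 did not depend on the narrow-range arrays. EW16 values were 9.34, 9.14 and 8.80 on these and 11.12, 9.53, 9.49, 9.60 and 9.88 on the others, against 11.32, 11.68, 11.50, 10.98 and 11.45 in EC16 mice. Of the 5 EW16 mice on arrays of the common range 4 lay more than 1 log2 unit below the lowest chow mouse, and mouse 4 lay among the chow mice. The difference was −1.77 (SE 0.296, adjusted p = 0.0041) with all mice, −1.46 (SE 0.276, adjusted p = 0.0054) without the narrow-range arrays and −1.30 (adjusted p = 0.0077) with each array's SD as covariate. Without those arrays 2 of 19 chemokine probe sets were called lower in EW16 mice, this one and Cxcl12 1448823_at, against 3.95% of all probe sets. Leaving out any of EC16 mice 1, 2, 3 or 5 ended both calls in the comparison of all mice (adjusted p of Ccl11 up to 0.016 and of Cxcl12 up to 0.019). The markers of the eosinophil itself were dim: Prg2, Epx, Siglecf and Ccr3 (4 of 5 listed) averaged 3.90 ± 0.110 in DW16, 3.89 ± 0.150 in DC16, 3.92 ± 0.117 in EW16 and 3.77 ± 0.037 in EC16 mice.

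Ccl8, in the mouse a ligand of Ccr8 and a product of tissue macrophages, was not lower in DW16 mice. Its DW16 values ran between 8.31 and 9.37 with a median of 8.95, against 9.04, 8.31, 7.26, 8.61 and 7.87 in DC16 mice. The groups overlapped, and the difference of 0.64 (SE 0.254, 95% interval 0.10 to 1.18) was not called (adjusted p = 0.080). The narrow-range arrays gave 0.60 and mice 8 and 9 gave 0.80 relative to DC16 mice, so that the direction was the same in both. In E mice the difference was −0.16 (SE 0.325, adjusted p = 0.77; −0.36, SE 0.286, adjusted p = 0.41 without the narrow-range arrays) with values of 7.69 to 10.11 in EW16 and 8.36 to 9.26 in EC16 mice, and the difference of differences was 0.80 (SE 0.428, adjusted p = 0.79), or 1.16 (SE 0.544, adjusted p = 0.26) without the narrow-range arrays.

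Cxcl12 binds Cxcr4, retains leukocytes in tissues and marrow, and is removed by the scavenger receptor Ackr3. By probe set 1448823_at it was 9.45, 9.05, 9.00, 8.71, 8.91, 9.10 and 8.55 in DW16 mice 1 to 7 and 10.28 and 9.91 in mice 8 and 9, against 10.60, 10.88, 10.61, 10.40 and 10.37 in DC16 mice. All 9 were below all 5, with mice 8 and 9 next to the chow mice. The difference was −1.35 (SE 0.241, 95% interval −1.87 to −0.84, adjusted p = 0.0052), and −0.47 (SE 0.173, adjusted p = 0.59) without the narrow-range arrays.

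In E mice the same probe set gave 9.35, 8.78 and 8.51 on narrow-range arrays and 10.24, 9.79, 9.60, 9.69 and 9.65 on the others, against 10.94, 11.18, 10.94, 10.38 and 11.00 in EC16 mice. All 8 EW16 mice lay below all 5 EC16 mice whatever the array. The difference was −1.44 (SE 0.251, adjusted p = 0.0049), −1.09 (SE 0.157, adjusted p = 0.0022) without the narrow-range arrays and −0.92 (adjusted p = 0.0031) with each array's SD as covariate. The probe sets of Cxcl12 did not agree in size: 1417574_at differed by −0.69 (SE 0.233, adjusted p = 0.047) in D and −0.95 (SE 0.286, adjusted p = 0.053) in E mice, and by 0.01 (SE 0.201) and −0.50 (SE 0.147, adjusted p = 0.034) without the narrow-range arrays. The dim 1439084_at stayed between 4.81 and 4.93 in the means of all 7 groups.

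**Figure D2:**
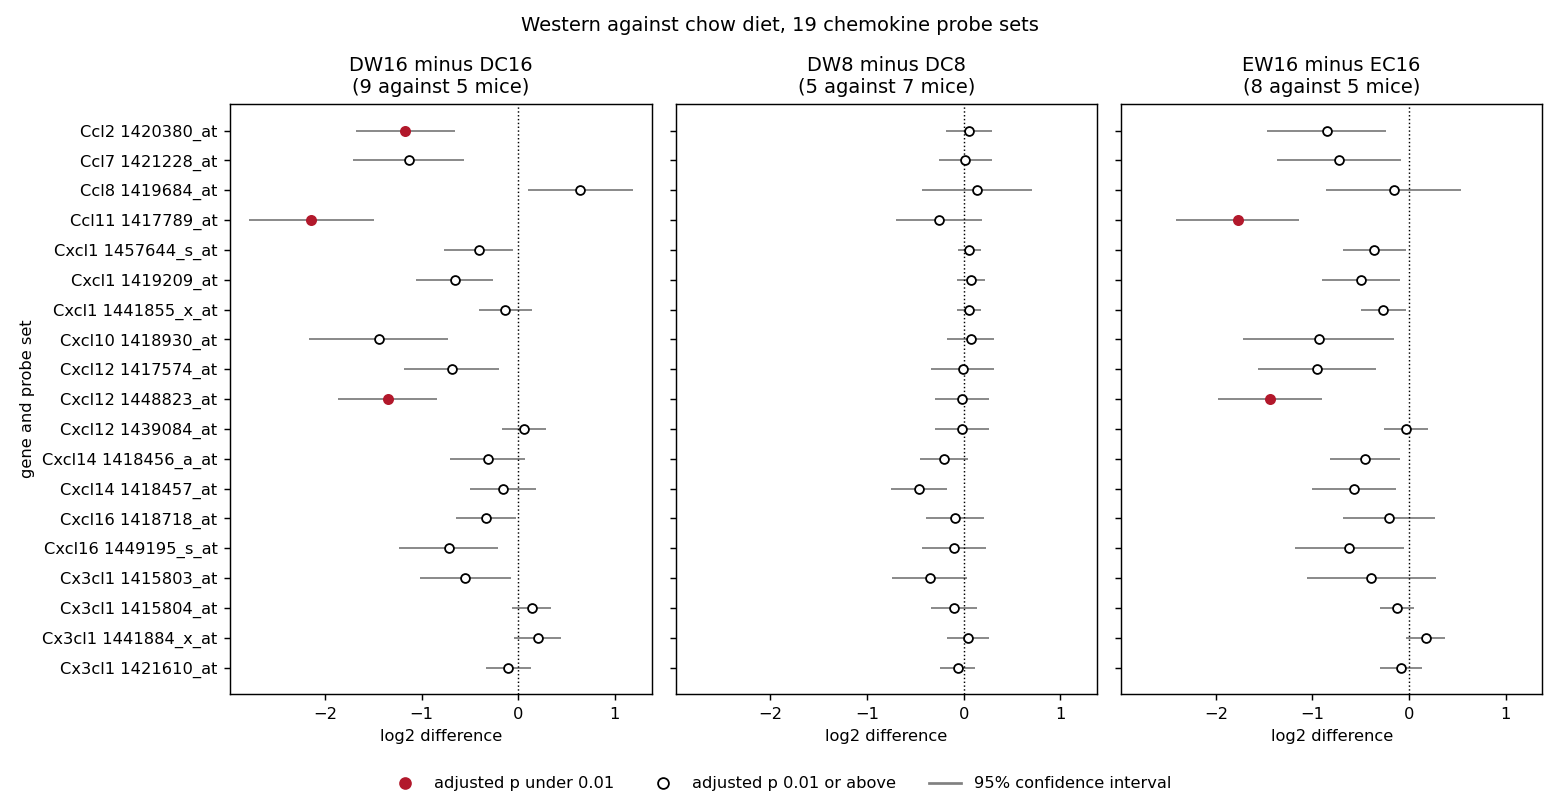
Log2 difference between Western and chow diet (x axis) for each of the 19 chemokine probe sets (y axis) in D mice at 16 weeks, D mice at 8 weeks and E mice at 16 weeks; points are limma estimates, lines 95% confidence intervals, and red points have an adjusted p under 0.01. Ccl11 and Cxcl12 1448823_at are red in both 16-week panels and Ccl2 in that of D mice, and no point is red at 8 weeks.

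Cxcl10, the interferon-inducible attractant of T cells through Cxcr3, and Cxcl1, a neutrophil attractant acting through Cxcr2, are CXC genes that NF-kB is known to induce. The promoters of Cxcl10, Cxcl1, Cxcl12 and Ccl8 are shown as examples, chosen with the values of these genes known. Sequences are those of RefSeq on GRCm38.p6, 250 bases before to 50 after the gene's start, and such a window was at hand for 6 of the 10 genes (also Cxcl14 and Cx3cl1). Capitals mark matches to a kappaB-like motif (GGG and TTCC with any 3 bases between them), an ISRE-like motif of interferon response (GAAA and GAAA with any 2 bases between them) or a TATA box (TATAAA), searched on both strands. Of 32851 promoter windows of that length 5.56% hold the kappaB-like, 3.44% the ISRE-like and 13.6% the TATA motif. The regions are chr5:92348840-92349139 on the minus strand for Cxcl10, chr5:90890995-90891294 on the plus strand for Cxcl1, chr6:117168285-117168584 on the plus strand for Cxcl12 and chr11:82114935-82115234 on the plus strand for Ccl8.
Cxcl10: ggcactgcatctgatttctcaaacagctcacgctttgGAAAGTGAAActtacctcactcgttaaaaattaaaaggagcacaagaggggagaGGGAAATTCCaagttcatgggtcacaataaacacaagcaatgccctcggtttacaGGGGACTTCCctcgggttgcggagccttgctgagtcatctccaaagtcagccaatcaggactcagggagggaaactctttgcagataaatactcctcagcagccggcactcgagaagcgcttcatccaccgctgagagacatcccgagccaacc
Cxcl1: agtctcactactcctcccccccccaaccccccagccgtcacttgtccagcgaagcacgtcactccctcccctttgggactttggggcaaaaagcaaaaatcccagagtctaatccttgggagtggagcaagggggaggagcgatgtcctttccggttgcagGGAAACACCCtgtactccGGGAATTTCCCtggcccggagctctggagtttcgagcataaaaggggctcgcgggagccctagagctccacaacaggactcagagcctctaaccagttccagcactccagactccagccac
Cxcl12: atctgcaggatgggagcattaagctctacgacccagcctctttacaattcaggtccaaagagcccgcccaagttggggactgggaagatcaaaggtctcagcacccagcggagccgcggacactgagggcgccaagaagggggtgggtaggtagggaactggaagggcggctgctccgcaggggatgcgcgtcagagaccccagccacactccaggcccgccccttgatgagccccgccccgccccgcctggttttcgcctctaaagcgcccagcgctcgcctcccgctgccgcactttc
Ccl8: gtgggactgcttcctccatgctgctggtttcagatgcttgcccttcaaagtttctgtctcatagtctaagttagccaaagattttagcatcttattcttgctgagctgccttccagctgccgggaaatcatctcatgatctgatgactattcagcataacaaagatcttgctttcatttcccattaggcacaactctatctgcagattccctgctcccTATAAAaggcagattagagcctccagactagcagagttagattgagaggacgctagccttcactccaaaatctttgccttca
Cxcl10 has an ISRE-like match that begins 213 bases before its start and 2 kappaB-like matches that begin 159 and 104 bases before it. Cxcl1 has kappaB-like matches that begin 89, 71 and 70 bases before its start, the last 2 overlapping on opposite strands. Ccl8 has a TATA match 32 bases before its start, and no capitals fall in the window of Cxcl12. Of the windows not shown, that of Cxcl14 holds an ISRE-like and that of Cx3cl1 a TATA match, and neither a kappaB-like one. Narrow-range means of Cxcl14 (1418456_a_at) differed from chow by −0.47 in DW16 and −0.68 in EW16 mice. Those of Cx3cl1 differed by −0.76 and −1.22 by 1415803_at and by 0.07 and −0.09 by 1415804_at. A relation between motifs and these values was not tested. Binding was not measured in this study, and a match is a run of letters only.

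Cxcl10 was the member most bound to the narrow-range arrays. It was 11.15, 10.63, 10.47, 10.72, 11.29, 10.49 and 11.17 in DW16 mice 1 to 7 and 12.74 and 12.40 in mice 8 and 9, against 12.80, 12.76, 12.63, 12.53 and 12.66 in DC16 mice. More than 1 log2 unit separates the narrow-range mice from the chow mice, and mouse 8 lies among the chow values. The difference was −1.45 (SE 0.337, adjusted p = 0.012), not called, and −0.10 (SE 0.137, adjusted p = 0.91) without the narrow-range arrays. In EW16 mice the 3 narrow-range values were 11.44, 11.10 and 10.80 and the others 12.25 to 13.15, against 12.90 to 13.26 in EC16 mice, with a difference of −0.94 (SE 0.365, adjusted p = 0.12) and of −0.35 (SE 0.170, adjusted p = 0.17) without the narrow-range arrays.

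Cxcl1 has 3 probe sets, whose means stand at percentiles 99.98, 99.85 and 99.35 of the array. They differed by −0.41 (SE 0.168), −0.66 (SE 0.188) and −0.13 (SE 0.128) between DW16 and DC16 mice (1457644_s_at, 1419209_at and 1441855_x_at, with an adjusted p of 0.090, 0.026 and 0.45). By 1419209_at values spread more in DW16 mice: it ran between 12.69 and 13.99 in DW16 and between 13.88 and 14.13 in DC16 mice, and the groups overlapped through mouse 8. Without the narrow-range arrays the 3 differences in D mice were −0.11 (SE 0.119), −0.17 (SE 0.135) and −0.15 (SE 0.133), in the same order of probe sets. Between EW16 and EC16 mice they were −0.36, −0.50 and −0.27 (adjusted p = 0.14, 0.11 and 0.13), and −0.18, −0.25 and −0.25 (adjusted p = 0.093, 0.11 and 0.036) without the narrow-range arrays, none of them called.

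Cxcl14, a chemokine of epithelia and fat, Cxcl16, the membrane-bound ligand of Cxcr6, and Cx3cl1, the membrane-bound ligand of Cx3cr1 known as fractalkine, gave no call in either diet comparison at 16 weeks. Cxcl14 (1418456_a_at) differed by −0.32 (SE 0.181, adjusted p = 0.21) between DW16 and DC16 mice and by −0.46 (SE 0.170, adjusted p = 0.10) between EW16 and EC16 mice. Its direction turned in D mice without the narrow-range arrays, to 0.21 (SE 0.202, adjusted p = 0.86), and it was −0.33 (SE 0.172, adjusted p = 0.21) in E mice. The dim Cxcl14 1418457_at had means of 4.52 in DW16, 4.68 in DC16, 4.33 in EW16 and 4.90 in EC16 mice. Without the narrow-range arrays it differed by 0.19 (SE 0.228, adjusted p = 0.90) in D and −0.72 (SE 0.217, adjusted p = 0.038) in E mice. Its EW16 mean was 4.58 on narrow-range arrays and 4.18 on the others. Cxcl16 differed by −0.33 (SE 0.145) and −0.72 (SE 0.241, adjusted p = 0.045) in D mice by 1418718_at and 1449195_s_at. Neither passes the threshold, and without the narrow-range arrays the 2 differences were −0.03 and 0.01. In E mice they were −0.21 (adjusted p = 0.55) and −0.62 (adjusted p = 0.14), and 0.01 and −0.30 (adjusted p = 0.99 and 0.24) without the narrow-range arrays.

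Cx3cl1 has a probe set of clear range, 1415803_at. Its 7 narrow-range DW16 values were 5.85 to 6.32 and those of mice 8 and 9 were 7.19 and 6.89, against 7.30, 7.13, 6.78, 6.24 and 6.81 in DC16 mice, with a difference of −0.55 (SE 0.222, adjusted p = 0.086). The EW16 mice split the same way, at 5.64 to 6.11 on narrow-range arrays and 7.00 to 7.49 on the others, against 7.00 to 7.69 in EC16 mice. The differences were 0.19 (SE 0.261, adjusted p = 0.91) in D and 0.11 (SE 0.141, adjusted p = 0.62) in E mice once the narrow-range arrays were left out. By 1415804_at the D mice again split, at 5.97 to 6.22 on narrow-range arrays, with 6.48 and 6.38 for DW16 mice 8 and 9, whereas the EW16 values overlapped, at 5.98 to 6.13 on narrow-range arrays and 5.85 to 6.29 on the others. That probe set differed by 0.14 (SE 0.0950, adjusted p = 0.28) between DW16 and DC16 mice, and by 0.38 (SE 0.133, adjusted p = 0.57) without the narrow-range arrays. The values of the dim 1441884_x_at and 1421610_at overlapped between the kinds of array in D and E mice.

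**Figure D3:**
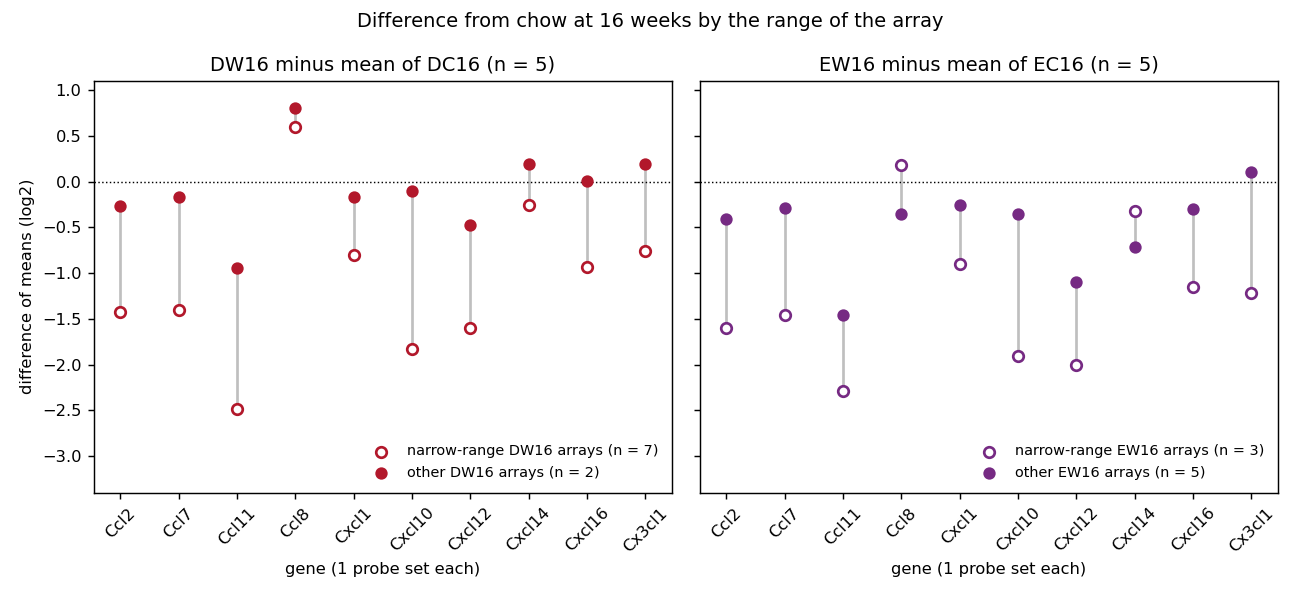
Difference of the mean of narrow-range arrays (open circles) and of the other arrays (filled circles) of 16-week Western-fed mice from the mean of chow-fed mice (y axis, log2), for the probe set of each gene with the widest range of group means (x axis), in D mice on the left and E mice on the right. Of the filled circles those of Ccl11 and Cxcl12 lie lowest in both panels, at −0.94 and −0.47 in D and −1.46 and −1.09 in E mice, while those of Cxcl10 lie at −0.10 and −0.35.

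After 8 weeks of Western diet no chemokine was called. Of 19 probe sets 0 were called between DW8 and DC8 mice by limma or by SAM and 1 had an unadjusted p under 0.05, against 1.08% of all probe sets called. The median difference was −0.02, as over all probe sets (−0.02), and no narrow-range array is in these groups. Ccl2 was 13.03, 13.10, 13.13, 13.17 and 12.96 in DW8 mice, against 12.58 to 13.30 (median 13.09) in DC8 mice, a difference of 0.06 (95% interval −0.18 to 0.29).

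Ccl11 was 10.90, 10.58, 11.24, 11.60 and 11.03 in DW8 mice, against 10.61 to 11.87 (median 11.39) in DC8 mice, and the difference of −0.26 has an interval of −0.70 to 0.19. These intervals leave out falls of the size seen at 16 weeks. Cxcl12 (1448823_at) differed by −0.02 (−0.29 to 0.26). The probe set with the smallest adjusted p was the dim Cxcl14 1418457_at, at −0.46 (SE 0.136, adjusted p = 0.069). The diet difference itself, taken at 16 minus 8 weeks in D mice, was −1.88 for Ccl11 (SE 0.397, adjusted p = 0.019), −1.34 for Cxcl12 1448823_at (SE 0.296, adjusted p = 0.020) and −1.23 for Ccl2 (SE 0.288, adjusted p = 0.023). Of 19 probe sets 0 were called in it against 0.00444% of all probe sets, and 8 had an unadjusted p under 0.05, against 27.7% of all probe sets, and 6 of 19 had an adjusted p under 0.05, all lower, against 4.89% array-wide. Leaving out DW16 mouse 8 or 9 gave 6 or 5 calls in it. Without the narrow-range arrays the diet difference at 16 minus 8 weeks was −0.68 for Ccl11 (adjusted p = 0.57 in limma). It was then −0.46 for Cxcl12 1448823_at (adjusted p = 0.57) and −0.32 for Ccl2 (adjusted p = 0.67). Of 19 probe sets 0 were called there, against 0% of all probe sets. With each array's SD as covariate 0 were called as well (smallest adjusted p = 0.33).

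Between 16 and 8 weeks of Western diet the same genes separated the D mice. Of 19 probe sets 5 were called, all lower in DW16 than in DW8 mice, against 4.48% of all probe sets: Ccl2 (−1.42, SE 0.234, adjusted p = 0.0030), Cxcl12 1448823_at (−1.46, SE 0.241, adjusted p = 0.0030), Ccl11 (−1.71, SE 0.317, adjusted p = 0.0045), Cxcl10 (−1.72, SE 0.342, adjusted p = 0.0059) and Ccl7 (−1.28, SE 0.258, adjusted p = 0.0062). At an adjusted p under 0.05 there were 10 of 19, against 14.6% array-wide, and in 6 of 19 every DW16 value lay below every DW8 value, against 2.57%. Without the narrow-range arrays 0 of 19 were called. Leaving out any of DW8 mice 1 to 3 gave 0 calls and DW8 mouse 4 or 5 gave 2, while leaving out DW16 mouse 8 gave 10 and mouse 9 gave 9. Between 3 and 4 were called without any other DW16 mouse. In E mice Cxcl12 1448823_at was the 1 of 19 called lower in EW16 than in EW8 mice (−1.17, SE 0.222, adjusted p = 0.0082), against 1.43% of all probe sets. Its EW16 values of 8.51 to 10.24 lay below all EW8 values of 10.48 to 10.97, as no other member's did (0.973% array-wide), and 5 of 19 had an adjusted p under 0.05, against 7.16%. Without the narrow-range arrays that difference was −0.83 (SE 0.126, adjusted p = 0.012), and the call was also lost when any EW8 mouse or any EW16 mouse but mouse 4 was left out, whose absence gave 5 calls. DW16 and EW16 mice stand in several of these comparisons, which are therefore not independent of each other.

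On chow the time made no called difference. Between DC16 and DC8 mice 0 of 19 were called by limma or SAM and 1 had an unadjusted p under 0.05, with 0% of all probe sets called. Ccl11 differed by 0.18 (95% interval −0.22 to 0.57), Ccl2 by −0.19 (−0.47 to 0.09) and Cxcl12 1448823_at by −0.12 (−0.41 to 0.16).

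D and E mice on the same diet gave no called chemokine. Of 19 probe sets 0 were called by limma or SAM between DW16 and EW16 mice (0% of all probe sets; 2 with an unadjusted p under 0.05), between DC16 and EC16 mice (0.00222%; 3) and between DW8 and EW8 mice (0%; 1). On chow at 16 weeks 2 of 19 had every DC16 value below every EC16 value, against 0.522% of all probe sets. In 0 of 19 every DC16 value lay above, against 0.742% of all probe sets. Cxcl10 was 12.80, 12.76, 12.63, 12.53 and 12.66 in DC16 mice, against 13.04, 12.90, 13.26, 13.00 and 12.93 in EC16 mice. Cxcl12 (1417574_at) was 11.02, 11.05, 11.06, 10.39 and 10.65 in DC16 mice, against 11.07, 11.42, 11.58, 11.33 and 11.88 in EC16 mice. The D mice were lower by small steps, −0.35 (SE 0.0892) and −0.62 (SE 0.168), and neither passed the adjustment over the array (adjusted p = 0.76 for both).

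Within groups Ccl2, Ccl7 and Ccl11 varied together. The deviations of Ccl2 and Ccl7 from their group means had a Pearson correlation of 0.95 over the 45 mice and 0.79 over the 35 mice on arrays of common range, the highest of any gene with Ccl2 (next Cdc42ep4 and Rela, 0.92 each over 45 mice). Ccl7 and Ccl11 had 0.83 and 0.72, and Ccl2 and Ccl11 0.81 and 0.68. Other members came as close to Ccl2: Cxcl10 had 0.85 and 0.44 with it, and Cxcl1 (1457644_s_at) 0.65 and 0.70. Probe sets of 1 array share its range and its RNA, so that these numbers describe the arrays as well as the genes. Ccl11 had Plscr1, Rusc2 and Gpx3 as its closest genes (0.87, 0.85 and 0.85 over 45 mice, 0.76, 0.73 and 0.68 over 35).

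Ccl8 did not follow them, with 0.07 and 0.31 against Ccl2. Its closest genes were Wfdc17, the chemokine Ccl6 and the complement gene C1qb (0.84, 0.78 and 0.77 over 45 mice, 0.85, 0.78 and 0.80 over 35), and its correlation with the mean of the 12 macrophage markers was 0.75 over 45 and 0.82 over 35 mice. The list's mean ran from 8.27 to 9.45 in DW16, 8.64 to 9.67 in DC16, 8.48 to 10.22 in EW16 and 9.13 to 9.71 in EC16 mice, and its highest mouse, EW16 mouse 1, also had the highest Ccl8 of all 45 (10.11). Itgam, at percentile 22.5 of the array, is the macrophage marker that is dim.

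Cx3cl1 and Cxcl12 followed the 8 endothelial markers, with 0.84 over 45 and 0.70 over 35 mice for Cx3cl1 (1415803_at) and 0.84 and 0.58 for Cxcl12 (1417574_at). Over 45 mice this was not particular to them, as Cxcl10 had 0.86, Ccl2 0.80 and Ccl7 0.74. Over 35 mice Cxcl10 had 0.03, Ccl2 0.08 and Ccl7 −0.004. Cx3cl1 and Cxcl12 each had 0.47 with the fibroblast and preadipocyte markers over 35 mice, and Cx3cl1 had 0.49 with the mesothelial markers. The endothelial mean itself was 8.07 to 8.67 on the narrow-range arrays of DW16 mice, with 9.81 for mouse 8 and 9.61 for mouse 9, against 9.47 to 9.99 in DC16 mice, and 9.64 to 10.00 in EW16 mice 4 to 8, against 9.57 to 9.92 in EC16 mice. In those 5 EW16 mice Cxcl12 was low by 1448823_at, a probe set whose correlation with the endothelial markers was not taken. Over the 35 mice its deviations correlated at 0.30 with those of 1417574_at. The part of endothelial RNA in these differences was not tested. The closest genes were Rasip1, N4bp1 and Cdc42ep2 for Cx3cl1 (0.90, 0.88 and 0.88; 0.83, 0.74 and 0.83 over 35 mice) and Il6st, Trim25 and Akap12 for Cxcl12 (0.89, 0.87 and 0.87; 0.77, 0.72 and 0.61).

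Among the other members, Cxcl1 (1457644_s_at) was closest to the adipocyte genes Fabp4, Car3 and Scd1 (0.97, 0.96 and 0.96 over 45 mice), and over 35 mice these were 0.40, 0.12 and −0.05. Cxcl10 was closest to Eif3c, Gnb2 and Mgat2 (0.96, 0.95 and 0.94; 0.72, 0.67 and 0.60), Cxcl14 to Ankrd9, Rogdi and Rpl13a (0.80, 0.75 and 0.75; 0.75, 0.67 and 0.59), Cxcl16 to Nob1, Oasl1 and Nufip1 (0.82, 0.82 and 0.80; 0.69, 0.73 and 0.68), and Ccl7, after Ccl2, to Rnf125 and Inafm1 (0.88 each; 0.67 and 0.41).

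**Figure D4:**
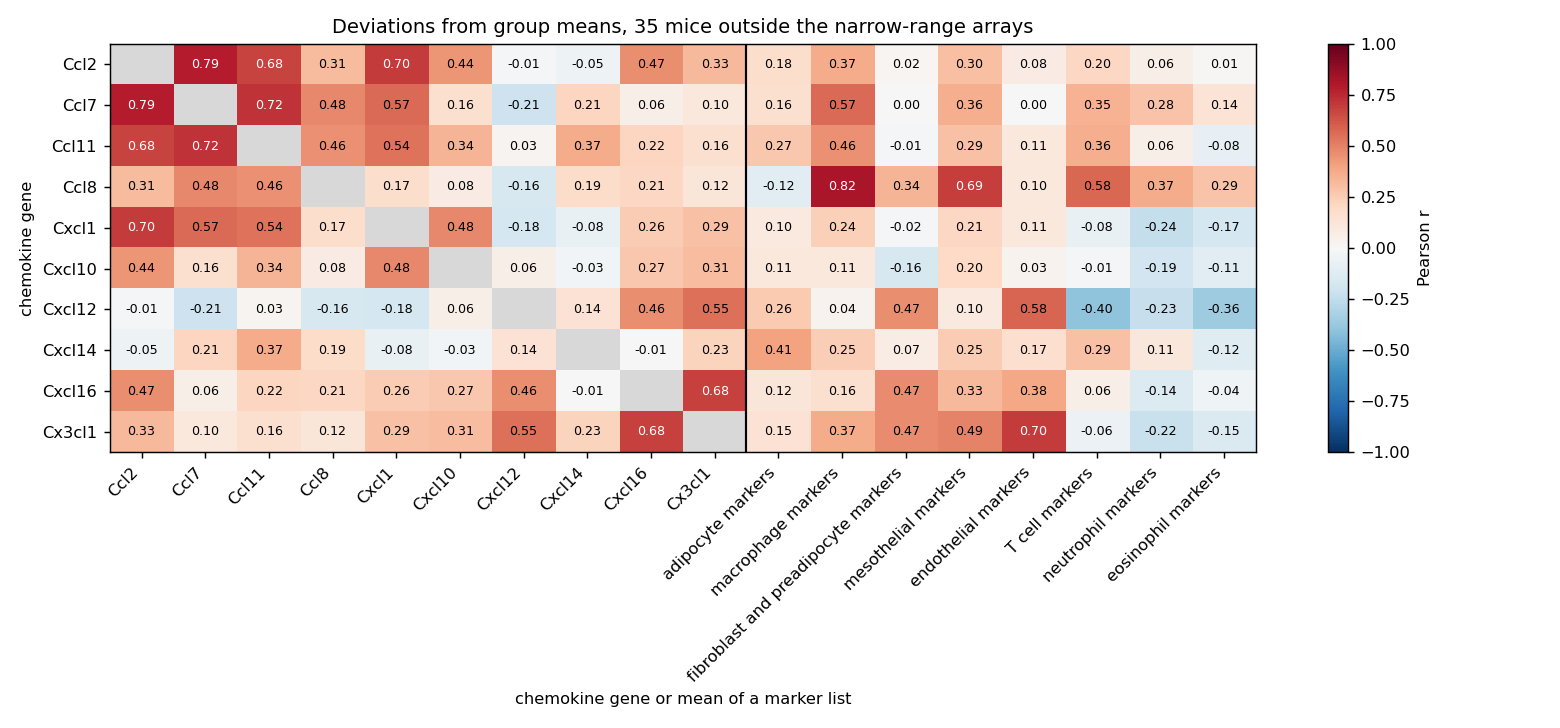
Pearson correlation (color and number) of deviations from group means over the 35 mice on arrays of common range, between 10 chemokine genes (rows, 1 probe set each) and the same genes or the mean of 8 marker lists (columns). Ccl2, Ccl7 and Ccl11 have 0.68 to 0.79 with each other, and Cxcl1 has 0.70 with Ccl2. Ccl8 stands with the macrophage markers at 0.82 and Cx3cl1 with the endothelial markers at 0.70.

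Of 25 further chemokines that were measured (27 listed), 0 were called by limma in any diet comparison. At an unadjusted p under 0.05 there were 7 between DW16 and DC16, 8 between DW8 and DC8 and 7 between EW16 and EC16 mice, and SAM called 2, 0 and 3. The unadjusted counts stand beside 37.9%, 19.1% and 27.7% of all probe sets in these comparisons. The smallest adjusted p belonged to Cxcl3, which like Cxcl1 draws neutrophils: its mean was 10.58 in EW16 and 11.47 in EC16 mice (−0.89, SE 0.195, adjusted p = 0.013), followed by Ccl1 (0.51, adjusted p = 0.016, DW16 minus DC16), Ccl25 (−0.63, adjusted p = 0.016, EW16 minus EC16) and Ccl17 (−0.45, adjusted p = 0.025, DW8 minus DC8). Between DW16 and DC16 mice 0 of the 25 were called without the narrow-range arrays (Ccl1 0.18, adjusted p = 0.86; 0 with an unadjusted p under 0.05), and 2 were called lower between EW16 and EC16 mice, against 3.95% of all probe sets: Ccl25 (−0.81, SE 0.101, adjusted p = 0.0015) and Cxcl13 (−1.34, SE 0.254, adjusted p = 0.0056), a B cell attractant named after its values were seen. Cxcl3 was −0.91 (SE 0.213, adjusted p = 0.013) there.

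The receptors for these ligands were dim for the most part. Of 20 measured (22 listed) 0 were called by limma in any diet comparison, with 8, 2 and 4 at an unadjusted p under 0.05 in DW16 against DC16, DW8 against DC8 and EW16 against EC16 mice, and 2, 0 and 1 called by SAM, the unadjusted counts again beside 37.9%, 19.1% and 27.7% of all probe sets. Ccr1, a receptor of monocytes, was 7.19 in DW16 and 8.63 in DC16 mice (−1.44, SE 0.382, adjusted p = 0.019). Ccr10 differed by 0.37 (adjusted p = 0.016) between the same groups, Ccr7 by −0.75 (adjusted p = 0.022) between EW16 and EC16 mice, and the Cxcl12 scavenger Ackr3 was 11.65 in DW8 and 11.14 in DC8 mice (0.51, SE 0.131, adjusted p = 0.039). In D and E mice 0 of the 20 were called without the narrow-range arrays, with 1 and 3 at an unadjusted p under 0.05. Ccr1 was then −0.45 (adjusted p = 0.90) and Ccr10 0.40 (adjusted p = 0.51) between DW16 and DC16 mice, and Ccr7 −0.76 (adjusted p = 0.025) between EW16 and EC16 mice. Ccr3, the receptor of Ccl11, lay at percentile 15.2 of the array.

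Among genes of NF-kB and cytokine signalling, which include known inducers of chemokine genes, 2 were called lower in DW16 mice and most had a lower mean. Of 30 measured (33 listed) 2 were called, both lower, between DW16 and DC16 mice, against 2.63% of all probe sets called lower: Relb, an NF-kB subunit (8.02 in DW16 and 9.58 in DC16 mice, −1.56, SE 0.288, adjusted p = 0.0058) and the kinase Irak1 (8.26 and 10.05 in the same order, −1.79, SE 0.390, adjusted p = 0.0098). Il6 (−1.06, adjusted p = 0.011) and the NF-kB subunit Rela (−1.69, adjusted p = 0.011) were next and not called. The median over the list was −0.86, beside 0.04 over all probe sets, and 27 of 30 had a lower mean. There 17 of 30 were lower at an adjusted p under 0.05, against 13.7% of all probe sets. SAM called 16 of 30, beside 7102 of 45037 probe sets. Between EW16 and EC16 mice 3 of 30 were lower at an adjusted p under 0.05, against 7.16%, and SAM called 4, beside 4628 of all. Between EW16 and EC16 mice 1 of 30 was called, Irak1 (−1.61, SE 0.289, adjusted p = 0.0053), against 2.39% of all probe sets called lower, and between DW8 and DC8 mice 0 were, with 4 at an unadjusted p under 0.05 and 0 by SAM. Between DW16 and DC16 mice 0 of 30 were called without the narrow-range arrays, with 3 at an unadjusted p under 0.05, a median of −0.01, −0.42 (adjusted p = 0.57) for Relb and −0.22 (adjusted p = 0.91) for Irak1. Between EW16 and EC16 mice 2 were then called lower, Irak1 (−1.28, adjusted p = 0.0069) and Relb (−0.55, adjusted p = 0.0099), against 3.95% of all probe sets, and the interferon gamma receptor Ifngr1, named after its values were seen, was called higher (1.36, adjusted p = 0.0019). The mean of this list was 8.96 to 9.35 on the narrow-range arrays of DW16 mice, with 10.21 for mouse 8 and 10.00 for mouse 9, against 9.92 to 10.34 in DC16 mice. Its share in the chemokine differences was not tested.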

How the data were processed

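Adipocyte RNA of 45 mice was hybridised to Affymetrix MG430-2.0 arrays. The authors computed log2 values with RMA express and deposited them as log2 RMA values per probe set; the sources used here give neither its version nor whether the arrays were normalized jointly. Groups came from the labels. All 45 value columns were used and 0 were left out. Probe sets carry the gene symbols of the array's annotation: 34945 have 1 symbol, 932 several and 9160 none.

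Each comparison was fitted on its own groups over all 45037 probe sets with limma 3.58.1 in R 4.3.3 (lmFit, eBayes, Benjamini-Hochberg), with no floor on dim probe sets, and called at an adjusted p under 0.01. SAM was written anew with 100 permutations and q under 0.01. Tables, promoters and plots used Python 3.11.15, pandas 2.3.3, NumPy 2.4.6 and Matplotlib 3.10.9. Tested on simulated data over 45037 probe sets, the fit recovered 75 of 100 changes of 1 log2 unit and 98 of 100 of 2 units at the spread of DW16 and DC16 mice with 2 false calls, 92 and 99 with 2 false calls for DW8 and DC8, and 72 and 94 with 1 false call for EW16 and EC16. The simulated noise was independent between probe sets, with the spread averaged over both groups and no shared shift of narrow-range arrays. These counts therefore do not measure error where such arrays take part.

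The members and lists were chosen with earlier results of these data known. Every member probe set is named, and the plot of diet differences shows them all. Named beyond them are up to 4 genes a list, taken by smallest adjusted p in a diet comparison, and for each member the 3 genes whose deviations from group means correlate best with its own. The number of mice limits the precision, and p-values weigh a group difference against the spread between mice, 1 array each. In DW16 and EW16 mice that spread includes the one between narrow-range and other arrays. Alternatives, chosen with the earlier results known, were calls shared with SAM, array weights, 1 spread for the 7 groups, trended and robust eBayes, arrays centred on their median, repeated quantile normalization, probe sets above the median level alone, an adjusted p under 0.05, replicate numbers as a block, each mouse left out in turn, the narrow-range arrays left out and each array's SD as covariate.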

Additional observations from a re-analysis of the deposited data

Results flagged for a closer look

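In 5 of the 133 combinations of a chemokine probe set and a group of 4 to 10 mice, the highest or lowest mouse stood apart from the others by more than Dixon's 95% limit, which chance gives in about 1 of 20 groups. Ccl11 was 11.12 in EW16 mouse 4, above the next value of 9.88, in a group whose other mice were all under the chow mice. Cxcl12 was 10.55 by 1417574_at in EW8 mouse 5, under the next value of 11.02, and 10.97 by 1448823_at in EW8 mouse 6, above the next value of 10.63. Cx3cl1 was 7.69 by 1415803_at in EC16 mouse 5, above 7.08, and 4.44 by the dim 1441884_x_at in EC16 mouse 1, above 4.19. None of these mice is on a narrow-range array.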

How the results depend on the processing

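No chemokine difference called in the main limma fit changed its sign under any alternative run. Differences called only under an alternative are not covered by this. The counts of called chemokine probe sets moved as follows. Between DW16 and DC16 mice (3 called) 1 spread over all 7 groups gave 6, weighting arrays 10, limiting the test to probe sets over the median 5, an adjusted p under 0.05 8, and the narrow-range arrays left out or each array's SD as covariate 0. With 1 mouse left out it was between 0 (DC16 mouse 2) and 6 (DW16 mouse 8; 5 for mouse 9). Ccl11 was called in 13 of these 14 fits, Cxcl12 1448823_at in 5 and Ccl2 in 2. Between EW16 and EC16 mice (2 called) 1 spread gave 4 and 1 mouse left out 0 to 2. Between DW16 and DW8 mice (5 called) 1 spread gave 9, weights 11, the median level 8, an adjusted p under 0.05 10, both settings on the narrow-range arrays 0, and 1 mouse left out 0 to 10. Between EW16 and EW8 mice (1 called) 1 spread gave 5, weights 5, the median level 2, an adjusted p under 0.05 5, both settings on the narrow-range arrays 0, and 1 mouse left out 0 to 5 (5 without EW16 mouse 4). For the diet effect at 16 minus 8 weeks in D mice (0 called) weights gave 8, an adjusted p under 0.05 6, and 1 mouse left out 0 to 6 (6 without DW16 mouse 8 and 5 without mouse 9). Between DW16 and EW16 mice (0 called) weights gave 4. The cause was not tested.

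Replicate numbers did not pair the mice: deviations of mice with the same number correlated between −0.44 and 0.53, and in no comparison were all correlations above 0.1. With replicate numbers as a block the counts were 9 between DW16 and DC16, 0 between EW16 and EC16, 10 between DW16 and DW8, 0 between EW16 and EW8 mice and 6 for 16 minus 8 weeks.

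Array-wide 1545 probe sets were called between DW16 and DC16 mice, 7723 with 1 spread, 13748 with weights, 7102 by SAM, 3 with the SD as covariate and 0 without the narrow-range arrays. Between EW16 and EC16 mice 1200 were called, and 3160 without those arrays. Quantile normalization again put the share of higher among called probe sets at 47.9% instead of 23.2% between DW16 and DC16 mice, 36.1% instead of 10.2% between EW16 and EC16 mice, 48.8% instead of 17.2% between DW16 and DW8 mice and 25% instead of 9.07% between EW16 and EW8 mice, and ended the call of Ccl2 (−0.73, adjusted p = 0.015) between DW16 and DC16 mice, where Cxcl10 was called instead (−1.03, adjusted p = 0.0098).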

Other observations

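Further marker lists had these levels at 16 weeks, given without a test. The mean of 6 mesothelial markers was 6.54 ± 0.826 in DW16 and 7.44 ± 0.591 in DC16 mice and 6.57 ± 0.455 in EW16 and 7.84 ± 0.459 in EC16 mice (SD), and that of 9 fibroblast and preadipocyte markers 10.66 ± 0.416 in DW16 and 11.21 ± 0.226 in DC16 mice. The mean of 4 neutrophil markers was 6.07 ± 0.429 in DW16 and 5.52 ± 0.400 in DC16 mice. These markers stood at percentiles 40.2 to 59.9 of the array, and 3 of them had a higher and 1 a lower mean in DW16 mice. The 3 probe sets of Cxcl1, which attracts neutrophils, all had a lower mean in DW16 mice. Cxcl3 was higher by 0.52 (SE 0.164, adjusted p = 0.086) in DW8 than in DC8 mice and lower by 0.49 (SE 0.199, adjusted p = 0.089) in DW16 than in DC16 mice, neither of which limma called.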
